A study of Apostichopus japonicus with 9 samples.

Results

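The miRNAs described here are the names that stood higher after 6 h in warm water than in the control and that the table for 48 h does not list, in intestines of Apostichopus japonicus, a sea cucumber. They were chosen by the deposited tables: listed at 6 h, mean level at 6 h above the control, and absent at 48 h. A fixed set of names, let-7 and well-known or separately described numbers, was left out. The rule gave 84 names out of the 100 that met the first conditions, of 156 names higher at 6 h and of 409 names in both tables. Small RNA was sequenced from 3 groups of 3 animals of 100 to 120 g each: a control kept normally, a group under heat stress at 26 °C for 6 h, and a group under heat stress at 26 °C for 48 h. All 9 libraries came from intestine tissue of separate individuals, and no temperature or sampling time of the control is given in the labels. One control group serves both times, so time in the tank and temperature cannot be told apart.

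MicroRNAs (miRNAs) are short RNAs cut from hairpin precursors. One arm of the hairpin is loaded into an Argonaute protein and guides it, mainly through the seed near its 5′ end, to messenger RNAs that are then repressed. The name of an arm ends in 5p or 3p, and the arm that is loaded less often is called the passenger arm. In heat-stressed animals some miRNAs are known to target chaperone and stress-response messages. Most names here come from other animals, so a name tells what a read was matched to and does not show that the sea cucumber carries that gene. The deposited tables pair names with counts and not with bases, so the results are given by name.

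For each listed miRNA the authors gave 1 read count pooled over a group and 1 mean level in RPM, reads per M reads of a library (M for mega). No values per animal are listed, yet count and mean together hold part of them. Where all reads came from 1 library, the count divided by the summed RPM equals that library's total. The recovered totals were 54.4, 69.3 and 96.9 M reads for the animals at 6 h. In the control they were 91.6, 109 and 144.9 M reads. Each library is named below by its total, because the tables do not tie totals to animals. Across both tables the lowest level of a library behind a single-library value was 20.01 RPM, and the lowest sum over several libraries was 40.6 RPM. A listed 0 is taken here to mean that no library of the group reached 20 RPM. The members were chosen by this contrast, so their values are a description and no test was run on them.

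Of the 84 miRNAs, 74 had all their 6 h reads in 1 library and 10 had reads in 2 or more. In the control, 76 were at 0 and 8 had reads. In the authors' deposited table every one of the 84 had a q-value of 3.4e-175 or less. That q-value compares pooled reads, so differences among animals do not enter it. Of the 403 miRNAs tested at 6 h, 38.7% were listed as higher with a q-value under 0.05. Because the rule used this contrast, nothing is read from that share. The other 72 names higher at 6 h had 35 with reads in 1 library and 37 with reads in more. The 74 single-library members were spread unevenly: 36 in the library of 54.4 M reads, 30 in that of 69.3 M reads and 8 in that of 96.9 M reads. The library with the largest recovered total thus held the fewest. Among the 35 other single-library names the numbers were 14, 18 and 3 in the same order. Without the library of 54.4 M reads 48 members would have any 6 h reads left, without that of 69.3 M reads 54, and without that of 96.9 M reads 76.

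**Figure D1:**
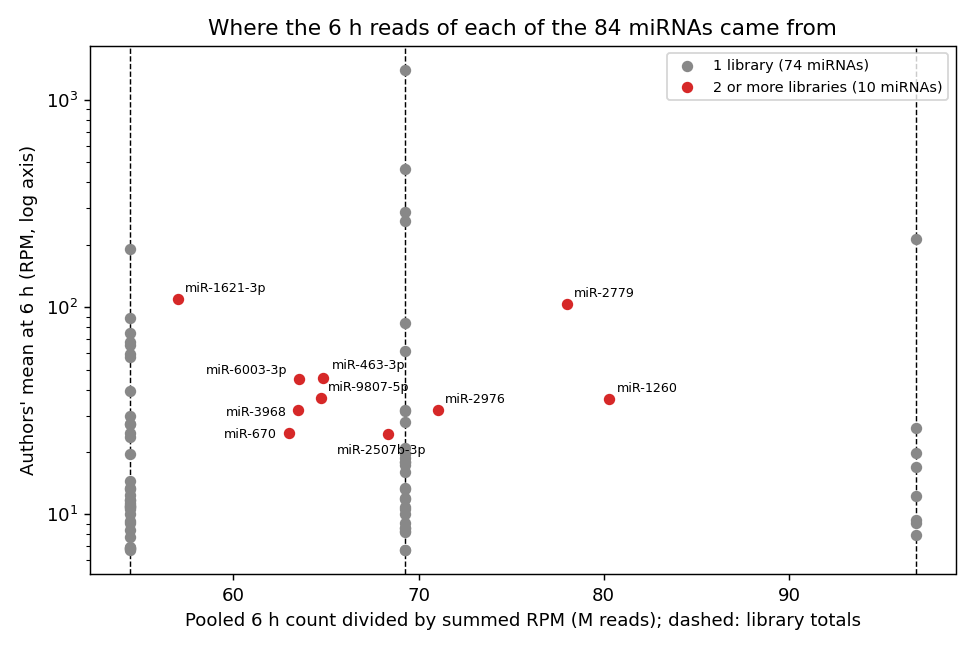
The pooled 6 h count of each of the 84 miRNAs divided by its summed RPM (x axis, M reads) is plotted against the authors' mean at 6 h (y axis, RPM, log axis), with dashed lines at the 3 library totals. The 74 grey points lie on a line, so their reads came from that library alone, and the 10 red points lie between lines.

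Levels were low for most and high for a few. The group mean at 6 h ran from 6.72 to 1396 RPM with a median of 17.1 RPM, against a median of 60.8 RPM for the other names higher at 6 h. In the library that held the reads, the single-library members had a median of 40.02 RPM, and 37 of the 74 lay below 40 RPM, close to the lowest level the tables list. Only 15 were above 100 RPM and 6 above 500 RPM. miR-4520-5p alone made up 29.5% of the summed mean of the 84, and the 10 highest made up 67.6%.

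**Figure D2:**
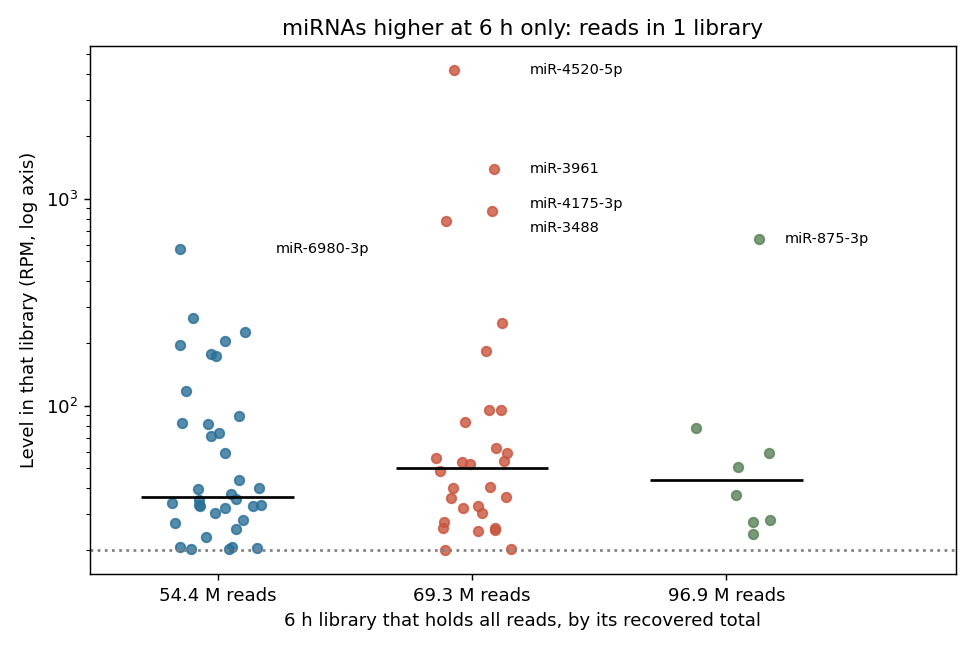
Each point is 1 of the 74 miRNAs with 6 h reads in 1 library, placed by that library's total (x axis), with its level there (y axis, RPM, log axis). Black bars are medians, 36.2, 50.1 and 43.8 RPM from left to right, and the dotted line is 20 RPM. Names are given above 500 RPM.

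The highest levels were in the library of 69.3 M reads. miR-4520-5p, a name from human, had 4189 RPM there and 0 in the other 6 h libraries and in the control. miR-3961, a mouse name, had 1396 RPM in the same library and 0 in all others of both groups. The groups therefore overlap at 0 for both miRNAs, since 2 of the 3 heated animals looked like the controls. On the group means miR-4520-5p was at least 69.8-fold and miR-3961 at least 23.3-fold higher, with each control library set to 20 RPM. These folds rest on that 1 animal and have no replicate check.

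Further names were high in that same library but also had control reads. miR-4175-3p, named first in the tunicate Ciona intestinalis, had 868 RPM in the library of 69.3 M reads and 0 in the other heated animals. Its control mean was 49.1 RPM from 2 or more libraries, of which the one of 144.9 M reads had from 88.5 to 108 RPM. miR-3488 had 782 RPM in the library of 69.3 M reads and 0 in the others at 6 h, beside a control mean of 54.0 RPM to which the control library of 91.6 M reads gave from 68.2 to 131 RPM. For both, 1 heated animal stood above every level a control animal can have had, and 2 heated animals stood below at least 2 control animals. The ratio of means was 5.89 for miR-4175-3p and 4.82 for miR-3488.

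The library of 54.4 M reads held more names at lower levels. miR-6980-3p, a mouse name, had 573 RPM there and 0 elsewhere. miR-1668-5p, a chicken name, followed with 266 RPM, miR-1957b, from mouse, with 226 RPM and miR-4568 with 204.3 RPM, each at 0 in all other libraries of both groups. miR-356, named in Caenorhabditis elegans, had 178 RPM and miR-9804-5p had 173 RPM in this library only. In each case 1 heated animal was high and the other 2 could not be told from the controls. miR-4976-3p had 197 RPM in this library and 0 in the other heated animals, with 29.5 RPM in the control library of 91.6 M reads and 0 in the other controls. It was the only 1 of the 84 with reads in exactly 1 library of each group.

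The library of 96.9 M reads held 8 names. miR-875-3p, known from mammals, had 641 RPM there and 0 in the other libraries of both groups. The other 7 were between 23.8 and 78.3 RPM, so without miR-875-3p this library held none above 100 RPM. Among them was miR-206 at 36.8 RPM, in vertebrates a skeletal muscle miRNA of the miR-1 family, and miR-101-1-5p at 59.1 RPM. A second name of that number, miR-206-3p, is listed as higher at both times. Its 6 h mean of 11.7 RPM came from the same library as the mean of 12.3 RPM of miR-206. The counts, 3392 and 3568 reads, differ by little. At 48 h the mean of miR-206-3p was 11.2 RPM, from 1 library. The absence of miR-206 at 48 h thus does not extend to every name of that number.

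The 10 names with 6 h reads in 2 or more libraries bear most directly on whether more than 1 heated animal had the miRNA. For each, the count and mean limit the level of every library, if a library holds either no reads or at least 20 RPM. With that limit 2 of the 10 were fixed completely. miR-670, named in mouse, had 31.3 RPM in the library of 54.4 M reads, 43.1 RPM in that of 69.3 M reads and 0 in that of 96.9 M reads. miR-2507b-3p had 49.1 RPM in the library of 54.4 M reads, 0 in that of 69.3 M reads and 24.01 RPM in that of 96.9 M reads. Both were at 0 in all controls, so 2 heated animals lay above the controls and 1 overlapped with them. A control at 0 can hold just under 20 RPM, so the margin can be small. A separate name, miR-670-3p, had 55.9 RPM in the library of 69.3 M reads only. Whether it shares reads with miR-670 was not tested.

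The remaining 8 had a range per library. miR-1621-3p, a chicken name, had from 272 to 309 RPM in the library of 54.4 M reads, at most 57.8 RPM in that of 69.3 M reads and at most 20.2 RPM in that of 96.9 M reads. Its mean of 110 RPM therefore came mainly from 1 animal, against 0 in the control. miR-463-3p, which in mouse belongs to a cluster on the X chromosome active in testis, had from 40.8 to 103.2 RPM in the library of 54.4 M reads, at most 95.9 RPM in that of 69.3 M reads and at most 33.5 RPM in that of 96.9 M reads, also against 0 in the control. miR-9807-5p had the same pattern, with from 33.3 to 82.5 RPM in the library of 54.4 M reads. It had at most 75.6 RPM in that of 69.3 M reads and at most 26.4 RPM in that of 96.9 M reads.

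**Figure D3:**
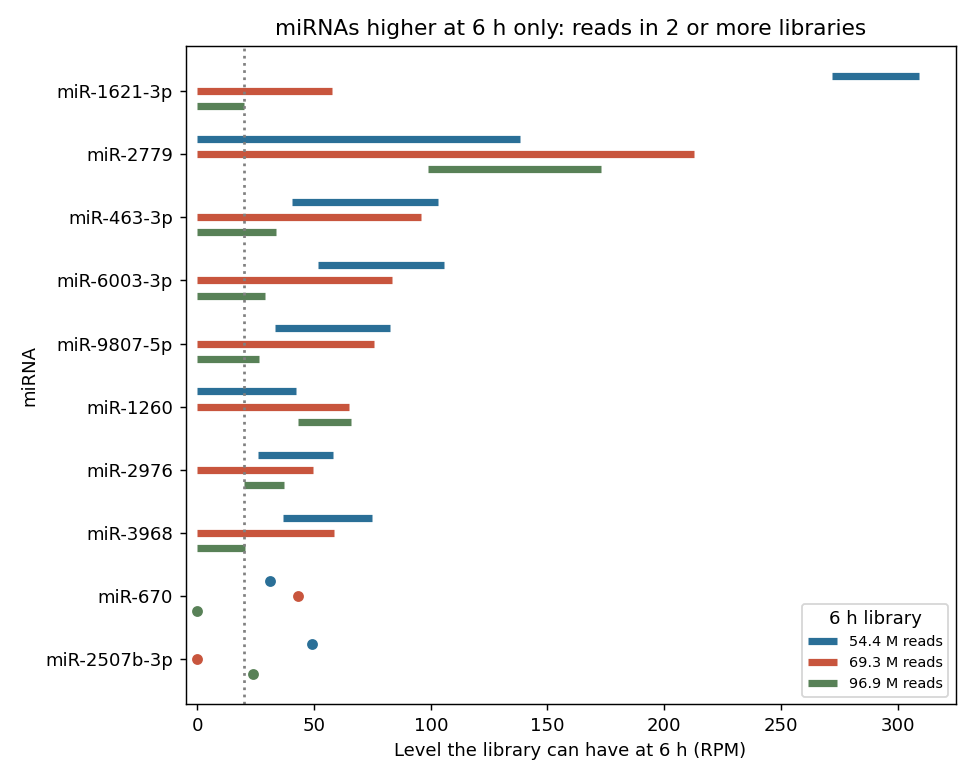
For each of the 10 miRNAs with 6 h reads in 2 or more libraries, bars show the lowest to the highest level (x axis, RPM) that each 6 h library can have, and dots show levels that are fixed. The dotted line is 20 RPM. Levels are fixed for miR-670 and miR-2507b-3p, and miR-1621-3p stands at 272 RPM or more in 1 library.

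The library of 54.4 M reads must have had reads for 8 of the 10, that of 96.9 M reads for 4 and that of 69.3 M reads for 1. The exceptions to the first were miR-1260 and miR-2779. miR-1260 had from 43.3 to 66.0 RPM in the library of 96.9 M reads and miR-2779, a silkworm name, had from 98.8 to 173 RPM there. Reads in a given pair of libraries are certain only for miR-670, miR-2507b-3p and miR-2976. The last had from 25.8 to 58.0 RPM in the library of 54.4 M reads and from 20 to 37.3 RPM in that of 96.9 M reads. Without the library of 54.4 M reads none of the 10 is certain to have reads in both others, without that of 69.3 M reads 2 are, and without that of 96.9 M reads 1 is.

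Control reads were found for 8 of the 84, and these are the only members for which the control level itself is listed. In 5 of them, miR-4976-3p, miR-6003-3p, miR-1260, miR-2976 and miR-3968, the control reads came from 1 library, and it was the same one each time, that of 91.6 M reads. Of all 117 names in the 6 h table with control reads in 1 library, 74 had them in that library. The level there was 21.4 RPM for miR-1260, 23.2 RPM for miR-2976, 24.7 RPM for miR-3968, 29.5 RPM for miR-4976-3p and 68.5 RPM for miR-6003-3p. For the first 3 this lies just above the lowest listed level, so the 0 of the other controls allows a level little below it.

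Group means of these 8 at 6 h and in the control were as follows. miR-2779 stood at 104 against 49.5 RPM, with reads in several libraries of both groups. In the control the library of 144.9 M reads had from 23.1 to 64.2 RPM of it, and the other controls at most 84.3 and 125 RPM. The ranges of the 2 groups overlap for miR-2779. miR-1260 stood at 36.1 against 7.13 RPM, miR-2976 at 31.8 against 7.74 RPM and miR-3968, a mouse name, at 31.8 against 8.23 RPM. For each of these a heated animal can have been at 0, so the groups can overlap here too. For miR-6003-3p the means were 45.0 and 22.8 RPM. Its single control library, at 68.5 RPM, lies inside the range of 51.7 to 105.8 RPM of the 6 h library of 54.4 M reads, so that control animal can have been level with a heated one.

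The authors' deposited table gives log2 ratios on pooled counts from 1.10 for miR-6003-3p and 1.16 for miR-2779 to 2.80 for miR-1260. These first 2 lie just inside the 2-fold limit of the listing, and unlisted miRNAs, those tested but closer to the control, are not analysed here. By the ratio of mean RPM, which weights the 3 animals equally, miR-6003-3p was 1.97-fold higher and so below 2-fold, while miR-2779 was 2.10-fold higher. With the 5 most abundant miRNAs of the 6 h table left out of the totals, every log2 ratio fell by 0.24, which put miR-2779 at 0.92 and miR-6003-3p at 0.86. The lowest of the other 6 was miR-3968 at 1.83 on that scale.

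Absence at 48 h is part of the rule and not a result, but it limits the level there. Of the miRNAs at 0 in the control, the 48 h table lists 121, with 1198 reads or more each. Any of the 76 members at 0 in the control would have been listed if it had reads at 48 h and was tested. Each is thus read as below 20 RPM in every 48 h library, provided that names at or above that level were tested. For the 8 with control reads, a tested miRNA that is not listed lay within 2-fold of the control on pooled counts. That places miR-4175-3p between 27.9 and 111 RPM at 48 h on the pooled scale, with 273 RPM at 6 h. miR-3488 lay between 23.8 and 95.4 RPM, with 245 RPM at 6 h. miR-1260 lay between 2.84 and 11.3 RPM, with 39.4 RPM at 6 h. These limits count a library below 20 RPM as 0, so the levels themselves can lie outside them. As counted, the pooled level at 6 h was at least 3.47 times that at 48 h for miR-1260 and 3.10 times for miR-4976-3p. The least value was 1.12 times for miR-2779 and 1.07 times for miR-6003-3p. For the last pair the 2 times may hardly differ.

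**Figure D4:**
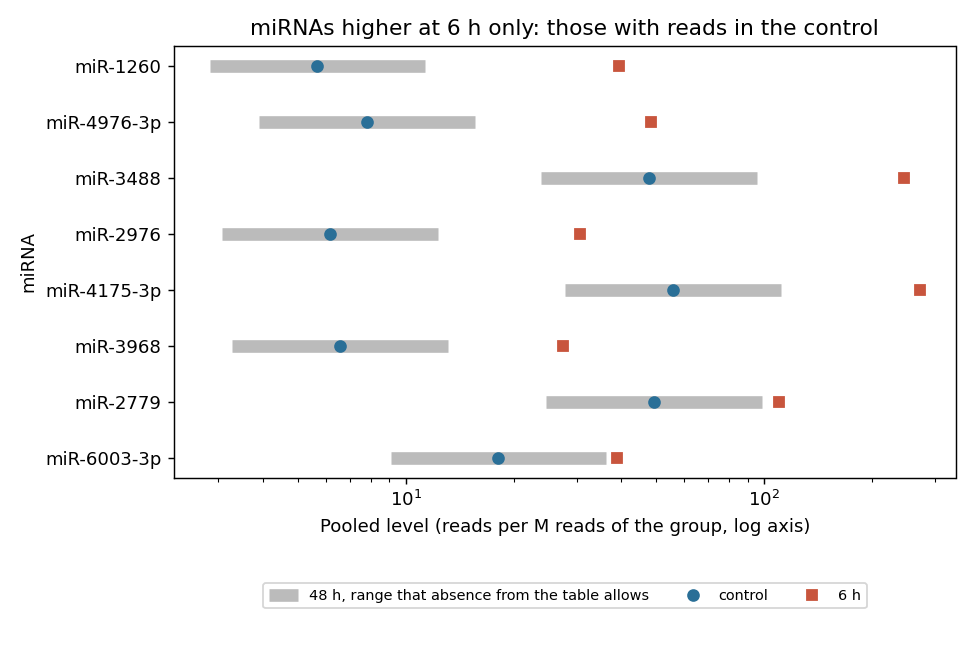
Pooled levels (x axis, reads per M reads of the group, log axis) of the 8 miRNAs with control reads are shown for the control (circles) and 6 h (squares), with grey bars for the range that absence from the 48 h table allows. The bar of miR-6003-3p ends at 36.3 RPM, next to its 6 h value of 38.9 RPM, while that of miR-1260 ends at 11.3 RPM, well below 39.4 RPM.

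Names that were higher at 6 h but just listed at 48 h lie right outside the rule. The nearest was miR-222, with 11.0 RPM in the control, 30.7 RPM at 6 h and 27.4 RPM at 48 h, and a log2 ratio at 48 h of 1.01 in the authors' deposited table. Next came miR-222-3p at 1.17, with 37.3 RPM at 6 h and 35.5 RPM at 48 h.

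A bound was used in place of a test across animals. Control libraries that can lie below 20 RPM were set to 20 RPM, and where a control level came from several libraries 1 of them was. By this least ratio 16 of the 84 were at least 2-fold higher at 6 h. Of the 403 tested miRNAs 12.9% were at least 2-fold higher in this way, 52 in number. The 403 include lower and unlisted names, which were not counted as higher. Among the other 72 names higher at 6 h, 36 were at least 2-fold higher by the least ratio, a larger part than among the 84. The 16 were 13 names at 0 in the control and miR-4175-3p, miR-3488 and miR-4976-3p. For 14 of the 16 the 6 h reads came from 1 library. The 2 with reads in more were miR-1621-3p, at least 5.49-fold higher, and miR-463-3p, at least 2.28-fold higher. miR-7307-5p, at 118 RPM in the library of 54.4 M reads, was just outside with 1.97, and miR-2779 had 1.85. Lower were miR-1260 with 1.76, miR-2976 with 1.51, miR-3968 with 1.47, miR-670 with 1.24 and miR-2507b-3p with 1.22. Without the library of 54.4 M reads 10 would remain past 2-fold, without that of 69.3 M reads 13, and without that of 96.9 M reads 23, since the mean is then over 2 animals. Of the 13 at 0 in the control, miR-8065 at 251 RPM and miR-7880s-5p at 184.4 RPM had their reads in the library of 69.3 M reads.

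The rule left out let-7 and many of the best-known conserved numbers, 16 names in all, so counts of conserved names among the 84 cover only what it kept and say nothing of how conserved the miRNAs higher at 6 h only are. A list of 27 further numbers shared by protostomes and deuterostomes, none of them left out by the rule, had no member among the 84, and the 6 h table lists 6 names of it, 2 of them higher. Of a list of 71 numbers conserved among vertebrates, 5 names are members, out of 10 higher and 1 lower at 6 h. They are miR-206, miR-101-1-5p, miR-135b, miR-181c-3p and miR-138-1-3p. Each had reads in 1 library, at 36.8, 59.1, 48.2, 35.6 and 25.04 RPM there, and 0 elsewhere. All 5 failed the least ratio of 2. miR-181c-3p, of a family that tunes lymphocyte signalling, was the only member on the immune list of 8 numbers. Of that list 2 names were listed at 6 h, 1 higher and 1 lower. The hypoxia and heat list of 4 numbers had none, and 2 names of it were lower at 6 h.

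Several of these names denote the arm that vertebrates load less often. In vertebrates miR-101 acts mainly from its 3p arm, miR-138, studied in neurons, from its 5p arm and miR-181c from its 5p arm, whereas the members are miR-101-1-5p, miR-138-1-3p and miR-181c-3p. The same holds for miR-197-5p, at 20.3 RPM in the library of 69.3 M reads, whose 3p arm is the common one in human. No other name of these 4 numbers is listed at 6 h or at 48 h. Over the 84, 25 names end in 3p, 28 in 5p and 31 name no arm. Among the other 72 names higher at 6 h the numbers were 24, 18 and 30. The predicted miRNA novel_mir_40, the only one of the authors' own in the set, had 32.7 RPM in the library of 54.4 M reads.

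Names from tunicates, insects and nematodes spanned a wide range of levels. Among them, and described above, were miR-4175-3p at 868 RPM, miR-356 at 178 RPM and miR-2779 with a mean of 104 RPM. Some others were lower. From Ciona, miR-4164-3p had 95.3 RPM, miR-4169-3p 83.4 RPM and miR-4066-3p 53.7 RPM, all in the library of 69.3 M reads, and miR-4051-3p had 20.3 RPM in that of 54.4 M reads. miR-311-3p, which in Drosophila lies in the miR-310 cluster related to miR-92, had 27.4 RPM in the library of 69.3 M reads. The fly names miR-964-5p, miR-986-5p and miR-927 had 40.2, 25.3 and 20.8 RPM, each in 1 library. miR-63-5p, from Caenorhabditis elegans, had 62.4 RPM in the library of 69.3 M reads. Of the names given in this paragraph, miR-4175-3p and miR-356 were at least 2-fold higher by the least ratio, at 5.18 and 2.96.

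Mouse and human names of high number were present too. miR-294-3p belongs in mouse to a cluster of embryonic stem cells, and had 27.2 RPM in the library of 54.4 M reads. miR-6781-3p had 78.3 RPM in the library of 96.9 M reads, and miR-6859-3p had 74.0 RPM in that of 54.4 M reads. miR-6769b-5p, miR-6786-5p and miR-6800-5p, further human names, had 33.9, 33.3 and 20.6 RPM, all in the library of 54.4 M reads. All 6 were at 0 in the control and in the remaining heated animals.

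Some names of the set are known from other species for sequences close to the 3′ ends of transfer RNAs: human miR-1260, mouse miR-3963 and miR-3968, and bovine miR-2478. Of these miR-1260 and miR-3968 were among the 10 with reads in several libraries, and miR-3963 and miR-2478 had 36.0 and 24.8 RPM in the library of 69.3 M reads. Whether the reads come from transfer RNA was not tested. miR-1260b, which is no member because it is listed at both times, had a mean of 8.09 RPM at 6 h and 6.77 RPM at 48 h, from 1 library each time.

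For 8 of the 84 another name of the same number is listed in 1 of the tables. miR-8268-5p had 95.2 RPM in the library of 69.3 M reads, which is a group mean of 31.7 RPM. The 6 h reads of miR-8268-3p were in the same library, with a higher group mean of 38.7 RPM at 6 h and 141.02 RPM at 48 h. miR-4711-5p had 35.2 RPM in the library of 54.4 M reads, a group mean of 11.7 RPM, and miR-4711-3p had a group mean of 97.5 RPM from 1 library at 48 h. miR-1421ab-5p and miR-1421r-3p had 32.9 and 32.02 RPM, both in the library of 54.4 M reads, with group means of 11.0 and 10.7 RPM. miR-1421l-1-3p and miR-1421ai-3p were at 0 at 6 h, with control means of 8.44 and 7.32 RPM from 1 library each. At 48 h miR-1421ai-3p was listed as higher, with a mean of 20.4 RPM from 1 library. For these numbers, names that are not members thus show other patterns over the times.

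The last 30 members were all at 0 in the control and had their 6 h reads in 1 library. In the library of 54.4 M reads 16 of them lay between 20.2 RPM for miR-1386 and 89.2 RPM for miR-7931-5p, among them the rat name miR-3594-3p, the zebrafish name miR-730 and the cattle names miR-2463 and miR-2900. The others there were miR-5588-5p, miR-9326, miR-9828-3p, miR-7434-5p, miR-3885-5p, miR-6954-5p, miR-7190-3p, miR-9445, miR-7398s-5p and miR-5950. In the library of 69.3 M reads 10 lay between 20.1 RPM for miR-5099 and 58.97 RPM for miR-5112, both mouse names. Between them came miR-7162-5p, miR-3649, miR-4546, miR-1480, miR-7863, miR-4474-3p, miR-6675-5p and miR-5960-5p. In the library of 96.9 M reads the 4 were miR-4633-5p, lowest at 23.8 RPM, miR-3291, miR-9844-3p and miR-7433-5p, highest at 50.7 RPM. None of the 30 was 2-fold higher by the least ratio.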

How the data were processed

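Total RNA of each animal was size-selected to short RNA on a gel, ligated, amplified and read on a HiSeq machine, according to the labels' protocols. No trimming, aligner, build, miRNA database or counting rule is named in the labels or headers. The authors deposited 1 table per heat group. Per the file headers it holds a whole-number read count per group, pooled over 3 libraries, and an expression value without a unit. On the values, the deposited expression is the mean RPM of the 3 libraries, with 0.001 for 0. The log2 ratio, the p-value and the q-value were deposited by the authors without naming the test, and only miRNAs beyond 2-fold are listed. Tested rows, 403 at 6 h and 415 at 48 h, were recovered from the ratio of q to p.

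With group values only, no test was run here. Library totals are the 3 densest values of count over summed RPM. With their sums the scaling inside the authors' log2 values was met to 0.0127% at 6 h. Assignment to libraries and the ranges per library were tested on data made with known answers (Python 3.11.15, pandas 2.3.3). In those data each library held either no reads or more than 20 RPM, so they could not check that minimum. The 20 RPM minimum is inferred. Counting error is small, since the lowest 6 h count of the 84 was 1098 reads. The spread between animals limits the precision. RPM values can shift when a few abundant miRNAs differ between groups.

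The members and lists were chosen with earlier results of these data known. Named miRNAs are those with reads in 2 or more libraries, the 10 highest at 6 h, those with control reads and those on the lists. Others were named after their values were seen. No sequences were used.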

Additional observations from a re-analysis of the deposited data

How the results depend on the processing

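The set holds 84 names, and 35 with a 6 h mean of at least 20 RPM. With one 6 h library left out, from 48 to 76 of the 84 keep reads, from 0 to 2 are certain to have reads in both remaining libraries, and from 10 to 23 are at least 2-fold higher by the least ratio. That last count, 16 with unlisted libraries at 20 RPM, was 33 at 10 RPM and 9 at 40 RPM, and 15 with the 5 most abundant left out of the totals. A minimum of 10 RPM gave 65 names, a 4-fold limit 82, mean RPM 83, joined names 82 or 83, and keeping the left-out names 100. The 10 names with reads in several libraries numbered 10 at both wider tolerances. The listing ends near 20 RPM per library, so lower levels were not detectable in these tables. No paired analysis was possible because the tables hold 1 value per group and no value per replicate number, and single animals could not be left out of the control.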
